A study of Homo sapiens with 16 samples.

Results

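The AP-1 and EGR immediate early genes described here are 10 genes, FOS, FOSB, JUN, JUNB, JUND, EGR1, EGR2, EGR3, IER2 and NR4A1, taken by symbol from a table of 57820 genes and read in all 16 libraries. The cells were HPB-ALL, CUTLL1 and KOPTK1, 3 human T-ALL lines (T-cell acute lymphoblastic leukaemia), in which the long non-coding RNA lnrCXCR4 was knocked down with CRISPR components carried by lentivirus or with an antisense oligonucleotide (ASO) in the medium at 1 uM. HPB-ALL gave 2 libraries with guides against the RNA and 2 with a non-targeting guide. CUTLL1 and KOPTK1 each gave 2 libraries with guides against 1 with a non-targeting guide, and 2 libraries with ASOs against 1 with a scrambled ASO, so there were 10 targeted and 6 control libraries in 5 experiments. All cells grew in RPMI with serum. The labels give neither the CRISPR effector nor the time after treatment, and they do not say whether the libraries of a group were separate cultures. The p-values therefore reflect library-to-library spread only, possibly technical. The numbered guides or ASOs of an experiment were used as replicates.

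AP-1 is a family of transcription factors built as dimers of a JUN protein (JUN, JUNB or JUND) with another JUN protein, a FOS protein or an ATF protein. Immediate early genes are switched on within minutes of a mitogen or stress signal, without new protein synthesis, through factors such as SRF with its ELK partners and CREB that already sit on their promoters. In T cells they are known as the first transcriptional answer to the antigen receptor, with EGR1, EGR2, EGR3 and NR4A1 among the genes that report the strength of that signal.

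The promoters of 5 members are shown because these genes went different ways after targeting. JUN and JUND rose, JUNB fell over CUTLL1 and KOPTK1, EGR1 took opposite directions in HPB-ALL and KOPTK1, and FOS is the classic partner of JUN. The sequences are RefSeq's, build GRCh38.p14, 300 bases from 250 before to 50 after the annotated start, 5′ to 3′ on the gene's strand, and capitals mark motif matches on either strand.
JUN, chr1:58783998-58784297, minus strand: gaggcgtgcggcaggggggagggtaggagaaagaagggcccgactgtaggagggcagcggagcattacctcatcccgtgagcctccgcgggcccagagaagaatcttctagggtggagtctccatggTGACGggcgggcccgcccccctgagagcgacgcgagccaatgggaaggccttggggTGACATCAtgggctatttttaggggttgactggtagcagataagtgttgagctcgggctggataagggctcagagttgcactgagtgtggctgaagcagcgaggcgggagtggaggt
JUND, chr19:18281573-18281872, minus strand: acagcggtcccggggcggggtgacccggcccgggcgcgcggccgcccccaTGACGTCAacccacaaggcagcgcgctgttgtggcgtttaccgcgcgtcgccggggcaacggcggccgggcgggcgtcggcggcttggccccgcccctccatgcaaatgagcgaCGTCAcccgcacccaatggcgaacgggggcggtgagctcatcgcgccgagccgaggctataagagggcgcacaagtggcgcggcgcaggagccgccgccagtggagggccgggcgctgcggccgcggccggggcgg
JUNB, chr19:12791236-12791535, plus strand: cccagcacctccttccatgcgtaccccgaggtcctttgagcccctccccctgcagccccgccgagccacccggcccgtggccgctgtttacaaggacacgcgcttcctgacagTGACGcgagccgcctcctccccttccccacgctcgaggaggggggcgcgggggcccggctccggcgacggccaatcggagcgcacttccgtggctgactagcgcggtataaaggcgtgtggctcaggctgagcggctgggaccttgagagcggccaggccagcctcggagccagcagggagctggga
EGR1, chr5:138465229-138465528, plus strand: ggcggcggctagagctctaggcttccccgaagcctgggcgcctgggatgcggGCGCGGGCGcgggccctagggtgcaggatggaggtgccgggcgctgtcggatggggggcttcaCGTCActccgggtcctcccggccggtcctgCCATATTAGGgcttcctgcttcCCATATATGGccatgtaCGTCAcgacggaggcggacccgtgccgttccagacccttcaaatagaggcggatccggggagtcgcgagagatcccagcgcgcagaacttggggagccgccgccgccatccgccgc
FOS, chr14:75278578-75278877, plus strand: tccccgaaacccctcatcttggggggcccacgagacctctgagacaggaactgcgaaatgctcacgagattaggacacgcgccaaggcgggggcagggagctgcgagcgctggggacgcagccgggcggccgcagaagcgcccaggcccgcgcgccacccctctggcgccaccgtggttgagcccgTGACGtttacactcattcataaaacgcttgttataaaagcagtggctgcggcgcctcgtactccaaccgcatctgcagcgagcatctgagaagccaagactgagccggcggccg
The letters searched were the cAMP response element (CRE) octamer TGACGTCA, its half-site TGACG, the related octamer TGACATCA of the JUN promoter, the AP-1 heptamer TGANTCA, the EGR nonamer GCGNGGGCG and the CArG box, the letters bound by SRF. The half-site is part of the CRE octamer, so those matches overlap. JUN held TGACATCA at -67 from its start, letters present in 2.61% of 35116 RefSeq promoter windows of this length. JUND held TGACGTCA at -200, present in 1.85% of windows. EGR1 held 2 CArG boxes, present in 1.29% of windows, and an EGR nonamer at -198, present in 9.43%. JUNB and FOS held only the half-site, present in 24.6% of windows, and the AP-1 heptamer, present in 7.71% of windows, was in none of the 12 windows of the 9 members that matched the table. Letters more than 250 bases before the start or more than 50 after it were not searched. A motif missing here, as in FOS or JUNB, may therefore lie outside the window. These matches describe the letters and are neither sites nor causes.

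The table holds normalised read counts, and the recovered depth ran from 34547469 to 72178929 reads per library. The 8 T-cell markers (CD2, CD3D, CD3E, CD3G, CD5, CD7, LCK and PTPRC) were read in every library. Summed T-cell markers were lower with targeting: 51251 to 53231 normalised reads in targeted HPB-ALL against 119432 to 120840 in its controls, 66814 to 68288 against 142819 to 144520 in CUTLL1, and 62265 to 64380.1 against 136197 to 137945 in KOPTK1. The sum of 5 B-cell markers was lower too, at 151 to 165 in targeted HPB-ALL against 503 to 509 in its controls, 206 to 229 against 352 to 371 in CUTLL1, and 461 to 573 against 2558 to 2667 in KOPTK1. MS4A1 was at 0 in every library of CUTLL1 and KOPTK1, and of the 2 B-cell markers that could be tested, CD79A (-1.47) and CD79B (-2.39), 2 fell. Of the 6 myeloid markers 1 could be tested, and that gene, AIF1, fell by 0.63, with CD33 at 0 in every library. Of 7 epithelial and fibroblast markers 3 were tested, with VIM (0.38) and COL1A1 (1.65) rising and CDH1 (-2.16) falling, and the 3 erythroid markers were too low to test. In bulk RNA fewer cells of a kind and less RNA per cell cannot be told apart, and the part of these shifts in the members' changes was not tested. CXCR4, after which the targeted RNA is named, rose by 0.23 on the log2 scale in the joint comparison (SE 0.0538, adjusted p 0.00141). Its mean ratio of targeted to control was 1.38 in KOPTK1, 1.10 in CUTLL1 and 1.03 in HPB-ALL, where the arms overlapped. The level of the targeted RNA itself was not analysed here.

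Among control libraries, the lines differed most in JUN, FOS, NR4A1 and JUNB. JUN, the prototype AP-1 subunit, read 2824 and 2899.9 in HPB-ALL controls, 1484 and 1466 in CUTLL1 controls, and 26.2 and 38.5 in KOPTK1 controls. HPB-ALL controls were therefore above those of CUTLL1 by 0.96 on the log2 scale (SE 0.156, adjusted p 0.000847), and CUTLL1 controls above those of KOPTK1 by 5.49 (SE 0.156, adjusted p 1.06e-07). FOS, the classic partner of JUN, read 66.1 and 77.1 in HPB-ALL controls, 315 and 318 in CUTLL1 controls, and 14.5 and 9.13 in KOPTK1 controls. KOPTK1 thus had the lowest JUN and FOS of the 3 lines, with no overlap between lines. NR4A1, an orphan nuclear receptor induced by the T-cell receptor, read 496 and 422 in HPB-ALL controls, 88.8 and 77.2 in CUTLL1 controls, and 19.4 and 11.1 in KOPTK1 controls. EGR1, a zinc-finger transcription factor, read 60.8 and 90.5 in HPB-ALL controls, against 379 and 322 in CUTLL1 and 268 and 252 in KOPTK1. HPB-ALL had the lowest EGR1 and the highest NR4A1, while CUTLL1 and KOPTK1 did not differ in EGR1 past the threshold (0.43, SE 0.192, adjusted p 0.0786, and 0.0224 or 0.023 when either HPB-ALL control was left out of the shared fit, or 0.0496 with a pseudocount of 5).

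JUNB, the AP-1 subunit often opposed to JUN, was almost unread in HPB-ALL. Its recovered reads were 0 and 2 in targeted HPB-ALL libraries and 4 and 1 in HPB-ALL controls, against 1933 and 1798 in CUTLL1 controls and 2319 and 3501 in KOPTK1 controls. The adjoining genes in RefSeq order, looked at after this was seen, were low in HPB-ALL in part. PRDX2, a peroxiredoxin gene next to JUNB, read 111 to 142 normalised reads in HPB-ALL controls, against 15677 to 16143 in CUTLL1 controls and 7005 to 7078 in KOPTK1 controls. HOOK2, on the other side, read 31.7 to 41.9, against 458 to 486 and 205 to 222. RNASEH2A, a ribonuclease subunit gene further along, read 4725 to 4739 in HPB-ALL controls, within the range of the other lines. DNA copy number and promoter state at this locus were not measured.

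JUND, the subunit that is usually expressed steadily, and IER2, an immediate early gene whose product acts in the nucleus, were the most even members across lines. JUND read 4859 and 4531 in HPB-ALL controls, 5046 and 5241 in CUTLL1 controls, and 4836 and 4432 in KOPTK1 controls. The HPB-ALL minus CUTLL1 difference in JUND, -0.13 (adjusted p 0.0457), was lost without the non-targeting (adjusted p 0.0973) or scrambled (adjusted p 0.232) control of CUTLL1 or without non-targeting guide 2 of HPB-ALL (adjusted p 0.277), and with no filter on low values (adjusted p 0.0837). Of the 8 members that could be tested, 8 differed between HPB-ALL and CUTLL1 controls, where 79.4% of all genes tested did. Between HPB-ALL and KOPTK1 controls 6 differed, with 79.5% of all genes, and between CUTLL1 and KOPTK1 controls 5, with 76.1% of all genes. Those shares show that differences between lines were as common in the table at large. The JUND difference between CUTLL1 and KOPTK1 controls did not pass without the non-targeting (0.18) or the scrambled (0.12) control of CUTLL1. FOSB was not tested in those omissions, because its mean rests on the CUTLL1 controls and fell below the filter on low values. Per kilobase of exon, JUND was the highest of the 10 members in every line and arm, at 2520.2 ± 124 in HPB-ALL controls, 2761 ± 73.8 in CUTLL1 controls and 2487 ± 153 in KOPTK1 controls (normalised reads per kilobase, SD, n = 2 each).

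**Figure D1:**
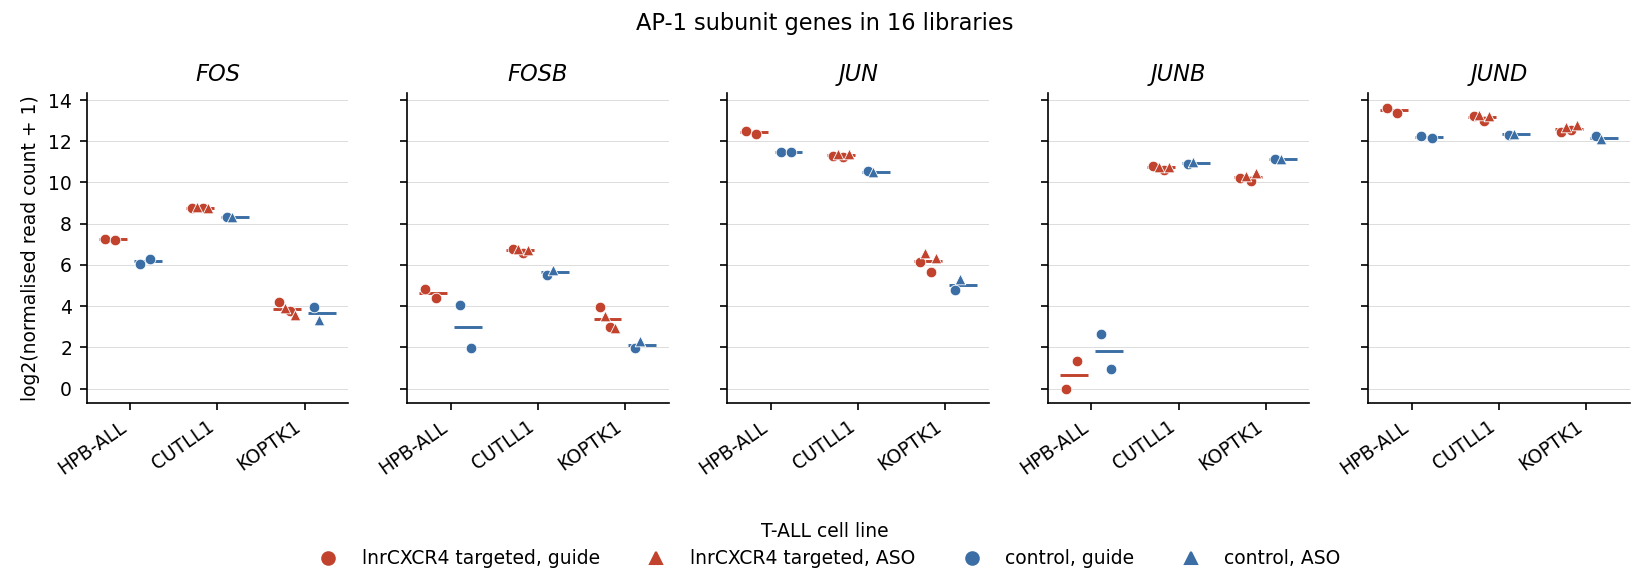
Normalised read counts of the 5 AP-1 subunit genes on a log2(value + 1) axis by cell line, with targeted libraries left of controls, circles for guides, triangles for ASOs and bars at the mean of the plotted values. JUN and JUND lie higher in every targeted library than in the controls of its line, and JUNB lies near 0 in HPB-ALL and lower with targeting in CUTLL1 and KOPTK1.

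JUN and JUND rose in all 3 lines and with both kinds of reagent. JUN read 5771 and 5275 in targeted HPB-ALL, against 2824 and 2899.9 in its controls. In CUTLL1 it read 2536 and 2411 with guides and 2657 and 2658 with ASOs, against 1484 and 1466 in the controls. In KOPTK1 it read 69.0 and 49.5 with guides and 94.6 and 80.4 with ASOs, against 26.2 and 38.5 in the controls. All 10 targeted libraries were above the controls of their line with no overlap, in the line with the lowest JUN as in that with the highest. Such a lack of overlap was common in the table. Every targeted library was above every control for 40.8% of all genes in HPB-ALL, 39.0% in CUTLL1 and 36.7% in KOPTK1. Over all 16 libraries JUN rose by 0.96 on the log2 scale (SE 0.0756, adjusted p 3.82e-08), and its 5 single experiments gave 0.95 in HPB-ALL, 0.74 and 0.86 in CUTLL1 with guides and ASOs, and 1.13 and 1.16 in KOPTK1. The guide effect on JUN did not differ past the threshold between the lines (F 1.58, adjusted p 0.342), though it did without KOPTK1 guide 2 (F 9.18, adjusted p 0.0171).

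JUND rose too, by an amount that differed between lines. It read 12727 and 10695 in targeted HPB-ALL, against 4859 and 4531 in its controls. In CUTLL1 it read 9671 and 8131 with guides and 9768 and 9432 with ASOs, against 5046 and 5241 in the controls. In KOPTK1 it read 5636 and 6009 with guides and 6544 and 6999 with ASOs, against 4836 and 4432 in the controls. No targeted library overlapped its controls. Depending on the line, 36.7% to 40.8% of all genes also lay wholly above their controls. The mean ratio of JUND was 2.49 in HPB-ALL, 1.80 in CUTLL1 and 1.36 in KOPTK1. The joint log2 fold change was 0.82 (SE 0.107, adjusted p 7.71e-06). The guide effect differed between the lines (F 28.8, adjusted p 0.000438), with 1.31 in HPB-ALL, 0.81 in CUTLL1 and 0.27 in KOPTK1. The KOPTK1 guide value was at the edge (adjusted p 0.0473) and was lost without KOPTK1 guide 1 or guide 2, either ASO library of CUTLL1 or of KOPTK1, or either HPB-ALL control (adjusted p 0.0517 to 0.155), with quantile scaling (adjusted p 0.0636) and with no filter on low values (adjusted p 0.215).

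JUNB fell while its relatives rose. In CUTLL1 it read 1787 and 1543 with guides and 1745 and 1732 with ASOs, against 1886 and 2070.45 in the controls. In KOPTK1 it read 1199.5 and 1091 with guides and 1289 and 1418 with ASOs, against 2246 and 2283 in the controls. Every targeted library of these lines was below both controls, as for 40.4% of all genes in CUTLL1 and 39.1% in KOPTK1. Over the 12 libraries of CUTLL1 and KOPTK1 alone, a fit chosen after JUNB was seen to be nearly unread in HPB-ALL, JUNB fell by 0.54 (SE 0.110, adjusted p 0.000886). In KOPTK1 JUNB fell by 0.97 (adjusted p 1.44e-05) with guides and by 0.76 (adjusted p 8.22e-05) with ASOs on the log2 scale. For CUTLL1 the log2 fold change was -0.18 (adjusted p 0.119) with guides and -0.25 (adjusted p 0.0411) with ASOs. The CUTLL1 guide value passed without guide 1 (-0.29, adjusted p 0.0273) and was -0.08 without guide 2 (adjusted p 0.500), and the ASO value did not pass without ASO 1 (adjusted p 0.102) or ASO 2 (adjusted p 0.115). The effect in CUTLL1 minus that in KOPTK1, a contrast also added after the values were seen, was 0.65 for JUNB (SE 0.0945, adjusted p 0.00116) and 0.40 for JUND (SE 0.0887, adjusted p 0.00914), and 3 of 8 members passed it where 27.7% of all genes did. The third was EGR1 (0.60, SE 0.183, adjusted p 0.0387), whose call was lost without any of 6 of the 8 targeted libraries of these lines, KOPTK1 guide 2 and KOPTK1 ASO 2 excepted (adjusted p 0.0537 to 0.0824), with quantile scaling (0.45, adjusted p 0.0833) and with no filter on low values (adjusted p 0.133). The JUND call was lost with no filter (adjusted p 0.0866), and JUN passed with quantile scaling (-0.65, adjusted p 0.0222).

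With HPB-ALL included, JUNB fell by 0.70 in the joint comparison (SE 0.247, adjusted p 0.0189), and this call was lost without the KOPTK1 non-targeting guide (adjusted p 0.0545). In the HPB-ALL experiment itself JUNB passed at adjusted p 0.0485 on 0 and 2 targeted reads against 4 and 1 control reads. These lie around the floor of 3 reads, so no fall is described there.

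Together these changes moved the makeup of the JUN family. Of the summed JUN, JUNB and JUND level per kilobase, JUND made up 80.1% ± 0.956 in targeted HPB-ALL (SD, n = 2) and 75.7% ± 1.22 in its controls (SD, n = 2). In CUTLL1 its share was 74.9% ± 0.627 with targeting (SD, n = 4) and 64.7% ± 0.423 in controls (SD, n = 2). In KOPTK1 it was 82.7% ± 0.979 with targeting (SD, n = 4) and 66.5% ± 1.67 in controls (SD, n = 2). JUNB's share was 14.1% with targeting and 25.5% in controls of CUTLL1, and 16.8% and 33.3% in KOPTK1, while JUN's share was 19.9% and 24.3% in HPB-ALL, 10.96% and 9.78% in CUTLL1, and 0.504% and 0.245% in KOPTK1. The summed JUN family level was 7846 ± 870 in targeted HPB-ALL and 3330.4 ± 111 in its controls (normalised reads per kilobase, SD, n = 2 each), and in KOPTK1 it was 4087 ± 390.2 with targeting (SD, n = 4) and 3741 ± 137 in controls (SD, n = 2). These shares were not tested.

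**Figure D2:**
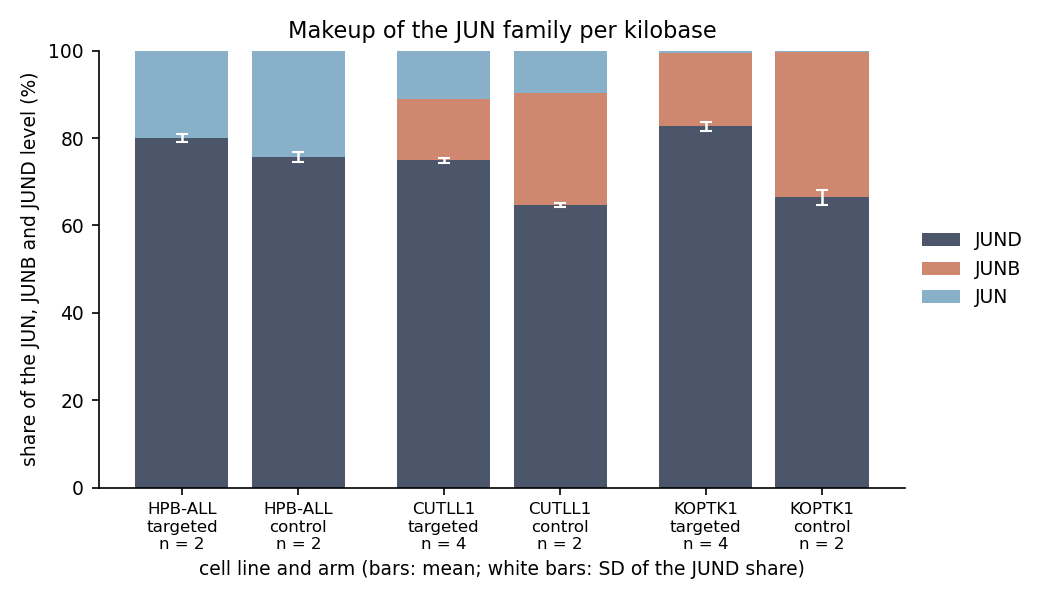
Share of JUND, JUNB and JUN in their summed level per kilobase of exon, as stacked bars of group means with targeted left of control in each line, white bars being the SD of the JUND share. JUND takes 74.9% to 82.7% with targeting and 64.7% to 75.7% in controls, and JUNB's part shrinks in CUTLL1 and KOPTK1.

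The FOS genes, whose proteins pair with JUN proteins in AP-1, also rose over the 16 libraries, and by single experiment FOS passed in HPB-ALL. FOS read 152 and 149 in targeted HPB-ALL, against 66.1 and 77.1 in its controls. In CUTLL1 it read 428 and 439.6 with guides and 448 and 438 with ASOs, against 315 and 318 in the controls. In KOPTK1 it read 17.2 and 12.7 with guides and 14.0 and 10.7 with ASOs, against 14.5 and 9.13 in the controls, which overlap. The joint log2 fold change was 0.54 (SE 0.132, adjusted p 0.00219), with 9 of 10 targeted libraries above their controls. By experiment FOS rose by 1.06 in HPB-ALL (adjusted p 0.000269), and the other values, 0.46 and 0.48 in CUTLL1 and 0.02 and 0.39 in KOPTK1 with guides and ASOs, did not pass. With quantile scaling FOS passed in CUTLL1 with guides (0.72, adjusted p 0.0167) and ASOs (0.74, adjusted p 0.015), in KOPTK1 with ASOs (0.68, adjusted p 0.0213) and in the ASO comparison (0.71, adjusted p 0.0116), and with a pseudocount of 5 in CUTLL1 with guides (adjusted p 0.0482) and ASOs (adjusted p 0.0415). The effect in CUTLL1 minus that in KOPTK1 did not pass for FOS (0.26, adjusted p 0.464). The F test between lines (F 6.64, adjusted p 0.0332) was lost without any guide library of CUTLL1 or HPB-ALL, KOPTK1 guide 2, HPB-ALL non-targeting guide 1 or either CUTLL1 ASO library (adjusted p 0.0514 to 0.0958).

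FOSB, a lowly read FOS relative, had its highest level in CUTLL1, with 108 and 95.7 with guides and 108 and 105 with ASOs, against 44.9 and 53.0 in the controls. In HPB-ALL it read 27.9 and 19.99 with targeting, against 15.9 and 2.86 in controls. In KOPTK1 it read 14.8 and 6.90 with guides and 10.5 and 6.70 with ASOs, against 2.91 and 3.91 in the controls. No targeted library overlapped its controls, although the KOPTK1 values rest on 5 to 12 reads with targeting and 3 and 6 in the controls. By line, 36.7% to 40.8% of all genes also lay wholly above their controls. FOSB rose by 1.28 jointly (SE 0.279, adjusted p 0.000855). Of the single experiments it passed in HPB-ALL (1.61, adjusted p 0.0236), and that call was lost without guide 1 (1.38, adjusted p 0.12) or non-targeting guide 2 (0.55, adjusted p 0.284) and with no filter (adjusted p 0.128). With either HPB-ALL control left out of the shared fit, FOSB also passed with guides in CUTLL1 (adjusted p 0.037 and 0.0383) and KOPTK1 (adjusted p 0.0105 and 0.011).

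**Figure D3:**
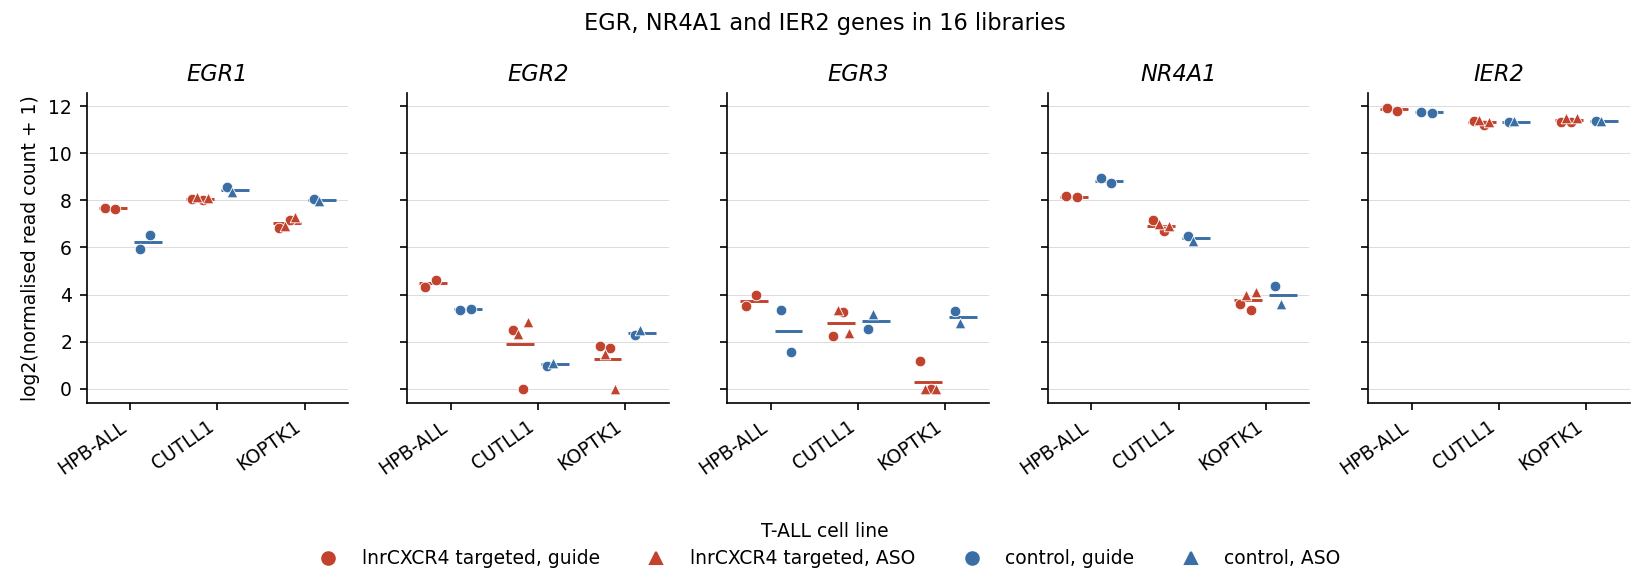
Normalised read counts of EGR1, EGR2, EGR3, NR4A1 and IER2 on a log2(value + 1) axis by cell line, with targeted libraries left of controls, circles for guides, triangles for ASOs and bars at the mean of the plotted values. EGR1 is higher with targeting in HPB-ALL and lower in CUTLL1 and KOPTK1, and IER2 stays near its controls.

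EGR1 took opposite directions in the lines. It rose in HPB-ALL, with 206 and 199 in targeted libraries against 60.8 and 90.5 in controls. It fell in KOPTK1, with 113 and 142 with guides and 120.01 and 157 with ASOs, against 268 and 252 in the controls. In CUTLL1 it read 262 and 258 with guides and 282 and 274 with ASOs, against 379 and 322 in the controls. In each line the targeted and control libraries did not overlap. Of all genes, 40.8% lay wholly above their controls in HPB-ALL, and 40.4% in CUTLL1 and 39.1% in KOPTK1 wholly below. The log2 fold change was 1.44 in HPB-ALL (SE 0.187, adjusted p 2.73e-05), -1.08 (SE 0.229, adjusted p 0.00153) and -0.87 (adjusted p 0.00592) with guides and ASOs in KOPTK1, and -0.54 (adjusted p 0.0602) and -0.22 (adjusted p 0.440) in CUTLL1. With quantile scaling the KOPTK1 ASO value was -0.50 and did not pass (adjusted p 0.0735). With guides the CUTLL1 value passed when either HPB-ALL control was left out of the shared fit (adjusted p 0.0245 and 0.0249) or with a pseudocount of 5 (adjusted p 0.0409). The guide effect differed between the lines more than for any other member (F 42.4, adjusted p 0.000115), so the guide comparison over lines (0.15, adjusted p 0.741) and the joint value (-0.10, adjusted p 0.756) average opposite effects. Over CUTLL1 and KOPTK1 alone, a fit chosen after the values were seen, the joint value of EGR1 was -0.68 (adjusted p 0.000593).

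EGR2 and EGR3, relatives of EGR1 that restrain T-cell activation, had means under 20 and were not tested. In HPB-ALL both were higher with targeting, EGR2 at 19.1 and 23.8 against 9.25 and 9.52 in controls, and EGR3 at 10.4 and 14.6 against 9.25 and 1.90. EGR3 in KOPTK1 had 1 read in guide 1 and 0 in the other 3 targeted libraries, against 9 reads in each control. EGR2 in KOPTK1 had 2 reads with each guide and 2 and 0 with the ASOs, against 4 and 7 in controls. These low counts lay on the same side as EGR1 in HPB-ALL and KOPTK1. In CUTLL1 both genes overlapped their controls, with at most 6 reads of EGR2 and 9 of EGR3 in any library.

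NR4A1 differed in direction among experiments. It read 287 and 279 in targeted HPB-ALL, against 496 and 422 in its controls. In CUTLL1 it read 141 and 101 with guides and 126 and 118 with ASOs, against 88.8 and 77.2 in the controls. In KOPTK1 it read 11.1 and 9.21 with guides, against 19.4 in the non-targeting control, and 14.9 and 16.1 with ASOs, against 11.1 in the scrambled control. NR4A1 was thus lower with targeting in HPB-ALL and higher in CUTLL1, and in KOPTK1, on 8 to 20 reads a library, the reagents disagreed. It fell by 0.69 in HPB-ALL (SE 0.190, adjusted p 0.00663, and 0.0551 without non-targeting guide 1, and -0.43 with adjusted p 0.0629 under quantile scaling) and by 0.88 with guides in KOPTK1 (adjusted p 0.00629). It rose by 0.66 with ASOs in CUTLL1 (SE 0.233, adjusted p 0.029), a call lost without ASO 1 (adjusted p 0.0883) or ASO 2 (adjusted p 0.0564) and with no filter (adjusted p 0.0535). The CUTLL1 guide value of 0.42 did not pass (adjusted p 0.136) but did without guide 2 (0.66, adjusted p 0.0378), and the KOPTK1 ASO value was 0.45 (adjusted p 0.116). Both passed with quantile scaling, at 0.77 (adjusted p 0.0134) and 0.71 (adjusted p 0.0192). The guide effect differed between the lines (F 9.48, adjusted p 0.0135).

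IER2 was the member that moved least. It read 3940.45 and 3528 in targeted HPB-ALL against 3497 and 3369 in controls, 2369 to 2693 in targeted CUTLL1 against 2552 and 2617, and 2541 to 2929 in targeted KOPTK1 against 2676 and 2650.5. Its joint log2 fold change was 0.04 (SE 0.0372, adjusted p 0.341), and it passed in none of the 5 experiments. It did pass without HPB-ALL guide 2 in HPB-ALL (0.20) and with quantile scaling there (0.14, adjusted p 0.0424). In the ASO comparison it passed without the CUTLL1 scrambled ASO (0.13), which leaves KOPTK1 alone in that effect.

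**Figure D4:**
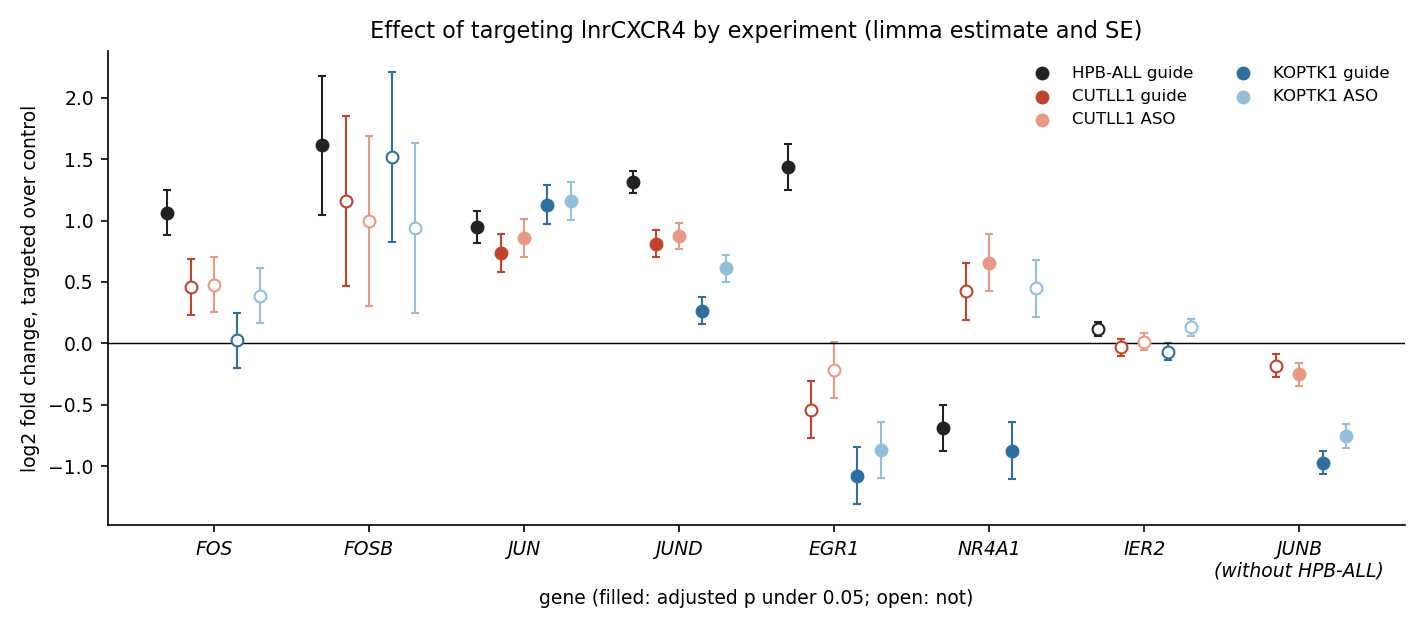
Log2 fold change of targeted over control libraries (limma estimate with its SE) for each tested member in the 5 experiments, with filled points where the adjusted p was under 0.05. JUN lies between 0.74 and 1.16 in all experiments, and EGR1 lies at 1.44 in HPB-ALL but at or below -0.22 in CUTLL1 and KOPTK1. JUNB is from the fit without HPB-ALL.

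Counted over the 8 tested members, the guide comparison of 10 libraries called 4 up (FOS, FOSB, JUN and JUND), where 32.7% of all genes were called up, and 0 down, where 35% were. No member fell at an unadjusted p under 0.05 there (0 of 8), while edgeR and DESeq2 on recovered reads each called 1, JUNB. The guide call of FOS (0.59, adjusted p 0.0176) was lost without HPB-ALL guide 1 (adjusted p 0.0518) or guide 2 (adjusted p 0.0524) and over CUTLL1 and KOPTK1 alone (0.24, adjusted p 0.316). Values near the threshold also turned on single libraries or lines. Leaving out the lone control of a line drops that line from this effect. NR4A1 (-0.42, adjusted p 0.112) passed without CUTLL1 guide 1 (-0.54, adjusted p 0.0298) or the CUTLL1 non-targeting guide (-0.76, adjusted p 0.00227). JUNB (-0.82, adjusted p 0.0713) passed without HPB-ALL guide 2 (adjusted p 0.0495) or HPB-ALL non-targeting guide 2 (adjusted p 0.0296).

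The ASO comparison of 6 libraries had 1 scrambled control in each line, so leaving that control out leaves the other line alone in the effect. It called 4 members up, with 31.8% of all genes up, and 2 down, with 33.2% down. JUN (1.01, adjusted p 0.000294), JUND (0.74, adjusted p 0.000111), FOSB (0.97, adjusted p 0.0157) and NR4A1 (0.55, adjusted p 0.0415) rose, and JUNB (-0.50, adjusted p 0.0072) and EGR1 (-0.54, adjusted p 0.0382) fell. The FOSB call was lost without CUTLL1 ASO 1 (adjusted p 0.0585) or ASO 2 (adjusted p 0.0538). The EGR1 call was lost without any of the 4 ASO libraries or the KOPTK1 scrambled control (adjusted p 0.0529 to 0.332) and with quantile scaling (-0.23, adjusted p 0.25), and the NR4A1 call without any of the 4 or the CUTLL1 scrambled control (adjusted p 0.0539 to 0.151), and with no filter (adjusted p 0.108) or edgeR (adjusted p 0.0682). DESeq2 called none of FOSB (1.07), EGR1 (-0.60) and NR4A1 (0.56), in a fit that also lacked CUTLL1 ASO 1. On the same libraries edgeR still called FOSB (1.04) and EGR1 (-0.60). FOS, at 0.43 (adjusted p 0.0651), passed without KOPTK1 ASO 2 (adjusted p 0.0308).

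The joint comparison called 4 members up, with 36.2% of all genes up, and 1 down, with 38.8% down. The calls of JUN, JUND, FOS and FOSB held there with each library left out in turn. The 1 member down, JUNB, did not pass without the KOPTK1 non-targeting guide, an omission that drops the KOPTK1 guide experiment from the effect. With guide or ASO number 2 alone the joint FOS value was 0.44 and did not pass. By experiment the calls numbered 2 and 3 in CUTLL1 with guides and ASOs, where 62.3% of all genes were called in each (the 2 became 4 when either HPB-ALL control was left out of the shared fit), 4 and 3 in KOPTK1, where 64.1% and 63.4% were, and 7 in HPB-ALL, where 70.9% were. The F test between lines passed for 4 of 8 members, where 43.7% of all genes passed. The share of tested members called was thus 25% and 37.5% in CUTLL1 with guides and ASOs, 50% and 37.5% in KOPTK1, and 87.5% in HPB-ALL. The HPB-ALL calls include JUNB, whose values there lie around the floor of 3 reads. With 8 members each gene moves such a share by many points, and neither these shares nor the counts were tested against the table.

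The reagents could be set against each other in CUTLL1 and KOPTK1. Guides minus ASOs passed for 0 of 8 members and 0% of all genes by limma, which was the only tool run for this contrast. At an unadjusted p under 0.05 there was 1 member, NR4A1 (-0.78, SE 0.233, adjusted p 0.496). The 2 kinds of control, scrambled ASO minus non-targeting guide, also differed in 0 of 8 members, where 0.00713% of all genes passed, and again the 1 member with an unadjusted p under 0.05 was NR4A1 (-0.48, SE 0.190). The 2 contrasts share those control libraries. For JUN, guides minus ASOs was -0.08 with an SE of 0.157, and for FOSB 0.37 with an SE of 0.692, so a difference of the size of the effect itself could be missed for FOSB.

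Other genes of the same network moved in both directions over the 16 libraries, beside a median log2 fold change over all genes of -0.03. Of all genes, 36.2% were called up and 38.8% down in this joint comparison. Of 18 other AP-1 dimer partners 16 could be tested, and 5 rose, or 3 with guide or ASO number 1 alone, and 9 fell (median -0.35). ATF3, a stress-induced partner of JUN, rose by 0.89 (SE 0.170, adjusted p 0.00027), ATF7 by 0.28 and BACH1 by 0.14, the last not passing over CUTLL1 and KOPTK1 alone (adjusted p 0.126). BATF, the JUN partner of activated T cells, fell by 2.14 (SE 0.198, adjusted p 2.23e-07), as did BATF3 (-1.88) and the small MAF gene MAFF (-1.73). Of 6 relatives and corepressors of EGR and NR4A genes 4 were tested, and 0 rose, or 1 with quantile scaling or no filter, and 2 fell. Those were WT1, a zinc-finger factor that binds EGR-like letters (-2.65), and NAB1, a corepressor of EGR proteins (-0.32).

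Of 25 tested other immediate early genes 15 rose and 9 fell (median 0.67), where 36.2% of all genes were called up and 38.8% down. RGS2, a regulator of G-protein signalling, rose by 2.23, TIPARP by 1.30 and NFIL3, a leucine-zipper repressor, by 1.23. RGS1, of the same family as RGS2, fell by 2.96, as did the activation marker CD69 (-1.37) and the MAP kinase phosphatase gene DUSP2 (-1.25). Among 26 tested regulators upstream of these genes 19 rose and 4 fell (median 0.21), with MAP2K1 (0.74), MAPK8 (0.67) and RPS6KA5 (0.66) rising and ELK3 (-1.88), MAPK3 (-1.22) and ATF1 (-0.48) falling. MAP2K1 and MAPK3 encode kinases of the ERK cascade, MAPK8 encodes JNK1, which phosphorylates JUN, and ELK3 and ATF1 are factors of the SRF and CREB branches.

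Genes that respond to heat or handling moved with the arms as well, where 36.2% of all genes were called up and 38.8% down. Of 9 tested, 6 rose and 2 fell (median 0.17): BAG3 rose by 0.45, HSP90AA1 by 0.44 and HSPA1B by 0.55, and the chaperone genes HSPB1 (-0.80) and HSPE1 (-0.62) fell. The HSPA1B call (adjusted p 0.0265) was lost without the non-targeting or scrambled control of CUTLL1 or KOPTK1 or HPB-ALL guide 2 (adjusted p 0.0541 to 0.0864). The part of handling in the members' changes was not tested. Of 8 genes of T-cell activation 4 were tested, with CBLB, a ubiquitin ligase that restrains the T-cell receptor, rising (0.71) and CD44, an adhesion receptor (-0.96), and ID3, an inhibitor of E proteins (-0.85), falling. IL2 and IL2RA were among the 4 too low to test.

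**Figure D5:**
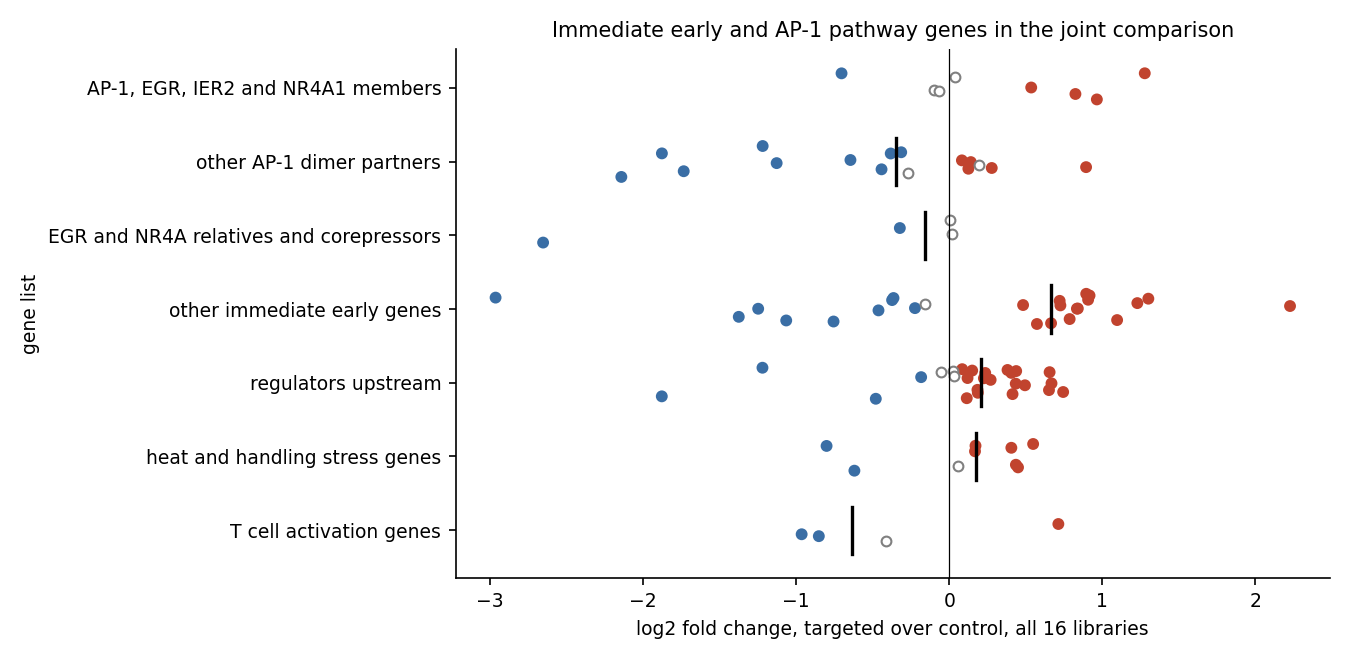
Log2 fold change of targeted over control over all 16 libraries for the tested members and the tested genes of 6 lists, each point a gene, red and blue where the adjusted p was under 0.05 and open where not, with black bars at the median of each list other than the members. The other immediate early genes have the highest median, 0.67, and the T-cell activation genes the lowest, -0.63.

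Across the 16 libraries, with each line centred on its own mean, FOS, FOSB, JUN and JUND varied together. The correlation was 0.82 for FOS with JUND, 0.81 for JUN with JUND, 0.77 for FOSB with JUN and 0.76 for FOSB with JUND. It was lower for FOS with FOSB (0.65) and FOS with JUN (0.59), and -0.36 for EGR1 with NR4A1. JUNB is left out because its HPB-ALL values lie around the floor. The libraries share the split into targeted and control, so these describe that split and no p is given. Genes with a pattern like that of JUN included GPKOW (r = 0.977) and RPL36 (0.975), and those most like JUND were PRR24 (0.988), SNRNP70 (0.986) and ERCC2 (0.986). EGR1 was most like NRXN2 (0.943), FAM129B (0.939) and TMEM164 (0.938), and FOS most like RP11-173M1.8 (0.953), ERCC3 (0.942) and OXSM (0.940). IER2 was most like SOCS1 (0.898), FOSB most like AC099850.1 (0.942) and NR4A1 most like AC018766.4 (0.885).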

How the data were processed

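Per the labels' protocols, RNA was made into libraries with a directional NEBNext kit. The submitters' processing notes name STAR (version 1.4.2), DESeq2 and hg19 but not what each did; the read counter, gene annotation and strand setting were likewise not given in the sources used here. As deposited, the signal is a normalised read count: 100% of the nonzero values in the authors' columns were whole multiples of a step per library (tolerance 1e-06), so reads could be recovered for 15 libraries. In the remaining library, CUTLL1 with ASO 1, the step lies too near 1 to be checked, so the reads given for it are the rounded values.

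Tests used log2(normalised count + 1) in limma 3.58.1 (R 4.3.3) with empirical Bayes moderation and a trend, keeping genes whose mean over the fitted libraries reached 20, with Benjamini-Hochberg adjustment over all genes tested and a threshold of 0.05. This scale shrinks the fold changes of low genes. The guide and ASO comparisons had cell line as a term, the joint comparison experiment as a term. Single experiments, the F test between lines and reagent contrasts came from 1 fit of 10 group means, in which a lone control is assumed to vary like the other groups. Of the 10 members 8 passed the mean of 20 (14020 genes over 16 libraries), and EGR2 and EGR3 did not. The members and gene lists were chosen with earlier results of these data known. All members are named; from each list, up to 3 genes per direction with the largest joint change among those called; per member, the 3 genes with the highest correlation, or the first of them; some genes that these rules name are not reported here.

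The settings varied were the pseudocount (5), the filter (none, or a mean of 100), the scaling (median-of-ratios, quantile), robust moderation, a replicate block, the use of only guide or ASO number 1 or 2, the omission of each library, and edgeR 4.0.16 and DESeq2 1.42.0 on recovered reads without CUTLL1 ASO 1. Levels per kilobase used exon unions of GENCODE 29 by symbol, on another build than hg19, so no coordinates of the files are given. Library pairs of the same arm and line differed by a mean chi-square per gene of 1.73 to 14.5 and targeted from control by 168.0 to 305.0, where 1 is counting noise. The lowest, 1.73, was CUTLL1 guide 1 against CUTLL1 ASO 1, while CUTLL1 guide 1 against guide 2 gave 3.74. These values cannot tell whether libraries were made from the same RNA. The fits were tested on simulated counts with known changes.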

Additional observations from a re-analysis of the deposited data

Results flagged for a closer look

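The guide effect differed between the 3 lines for 4 of 8 members, where 43.7% of all genes passed. The F statistic was 42.4 for EGR1, with a log2 fold change of 1.44 in HPB-ALL, -0.54 in CUTLL1 and -1.08 in KOPTK1. It was 28.8 for JUND (1.31, 0.81 and 0.27), 9.48 for NR4A1 (-0.69, 0.42 and -0.88) and 6.64 for FOS (1.06, 0.46 and 0.02), whose call was lost when any of several single libraries was left out (adjusted p 0.0514 to 0.0958).

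EGR3 in targeted KOPTK1 had 1 library apart from the other 3, guide 1 at 1.23 normalised reads, which is 1 read, against 0. Of 20 groups of 4 libraries examined, 1 had such a library, and chance flags about 1 in 20.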

How the results depend on the processing

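Of 2362 alternative values of members, 2236 kept their direction and side of the threshold, 84 lost and 41 gained a call, and 1 reversed: EGR1 in the guide comparison, -0.81 (adjusted p 0.00384) over CUTLL1 and KOPTK1 alone, an alternative chosen after seeing the data. Of 810 values of the other named genes, 801 kept theirs and 9 lost a call. In the guide comparison the members called down numbered 1 with a pseudocount of 5, edgeR or DESeq2, 2 over CUTLL1 and KOPTK1 alone and 0 to 1 leaving out a library, and those called up 2 with guide number 2 alone. In the ASO comparison the members called up numbered 2 with a mean of 100. Fewer members than in the main fit were also called up with number 1 or number 2 alone and when some single libraries were left out. The same held for edgeR and DESeq2, which both lacked CUTLL1 ASO 1. Those called down numbered 1 with quantile scaling, number 1 or 2 alone or DESeq2, and 1 to 2 leaving out a library. In the joint comparison the members called down numbered 0 with number 1 or 2 alone, 2 over CUTLL1 and KOPTK1 alone and 0 to 1 leaving out a library. CUTLL1 guide calls numbered 4 with quantile scaling, 5 with a pseudocount of 5 and 2 to 4 leaving out a library. Control differences of CUTLL1 minus KOPTK1 numbered 3 to 7 leaving out a library, and the effect difference between these lines 1 with no filter. Other causes were not tested.

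Same-numbered libraries did not deviate together (correlations -0.0139 to 0.0655 over 14020 genes), and the main fits did not pair libraries by number. Such correlations cannot tell whether equal numbers mark a shared reagent or batch. The replicate block left 1 member called down in the ASO comparison and changed no other member count by over 1.5 times. Contrasts of group means whose lone control was left out had no value. In the guide, ASO and joint comparisons such an omission dropped the whole line or experiment from the effect. Depth limits EGR2, EGR3, FOSB in KOPTK1 and JUNB in HPB-ALL.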
